A study of Mus musculus with 10 samples.

Results

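The Ifi200 family is a cluster of interferon-inducible genes on mouse chromosome 1 whose proteins belong to the PYHIN group. The 10 genes described here are Ifi203, Ifi204, Ifi205, Ifi206, Ifi208, Ifi209, Ifi211, Ifi213, Ifi214 and Mndal, found by symbol among the 56980 rows of the deposited count table. All 10 passed the filter on low counts and were among the 14436 genes tested. They were chosen by earlier results of the same KO against WT comparison of these libraries, so their differences between the genotypes are given as a description, without p-values. The KO group was 5 libraries of macrophages from mice labelled as macrophage knockouts of Jaml, the gene of junctional adhesion molecule-like protein. The WT group was 5 libraries of macrophages from Jaml wild-type mice. KO and WT cells alike were stimulated with LPS, the bacterial lipopolysaccharide that TLR4 binds, for 8 h at 100 ng/ml. ATP followed for 30 min at 5 mM, a step that after LPS is known to trigger the NLRP3 inflammasome. Untreated cells were not analysed here, so a level in LPS and ATP cannot be set against a resting level. Every value comes from bulk RNA, in which fewer cells of a type and less RNA per cell cannot be told apart.

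Most PYHIN proteins carry a HIN-200 domain that binds double-stranded DNA, and most a pyrin domain that joins other pyrin domains. Not every member has both. AIM2, the best known member in mouse and human, binds cytosolic DNA and assembles an inflammasome with the adaptor ASC and caspase-1. Mouse p204, the product of Ifi204, is often compared with human IFI16 and has been reported to act with STING in the interferon response to DNA. The genes are induced by type I interferon, which macrophages make after LPS, through interferon-activated transcription factors that bind interferon-stimulated response elements.

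The labels limit how the groups can be read. KO samples are macrophage knockouts by title but knockdowns by genotype tag, no Cre line or deleted exon is named, and no label gives age, strain or separate animals or cultures. Of the count columns, 5 carry WT names and 5 are headed SI, which no label explains. The tissue the macrophages came from is not named. The SI columns were taken as KO by elimination, so every direction below rests on that reading, and p-values reflect only differences among these libraries, whose spread may be technical. Jaml itself (chromosome 9, 44990481 to 45019832) could not check the labels, with 2 counts in KO 4, 2 counts in WT 1 and 0 in the other 8 libraries. Library totals ran between 19319512 and 22766319 counts, and 3 counts, taken as the floor, corresponded to 0.132 to 0.155 CPM, the TMM-normalised share of a library used throughout. Macrophage markers were present throughout, with 7 of 7 detected and a summed level of 21980 to 23993 CPM in KO and 23131 to 24595 CPM in WT. On the second principal component, which held 17.7% of the variance, KO 1 and KO 3 stood apart from the other 8 libraries.

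The promoters of the family share a short stretch, shown here because it is a feature the choice of genes did not use. RefSeq windows (GRCm38.p6, from 250 bases before to 50 bases after each start) were found for 9 of the 10 genes. Ifi204 had no entry. The letters searched were GAAANNGAAA, the core of an interferon-stimulated response element, on both strands. In 8 of the 9 genes a window held a match, against 3.44% of all 32851 windows and 3.99% of 27025 genes. Many of these windows are near copies of each other, as given further below, so the matches are not separate observations. The lines below give the stretch in the strand of the gene, with the matching letters in capitals and the coordinates of the whole window it was read from.
Ifi206 (chr1:173491269-173491568, minus strand): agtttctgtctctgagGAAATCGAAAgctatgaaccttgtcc
Ifi208 (chr1:173673415-173673714, plus strand): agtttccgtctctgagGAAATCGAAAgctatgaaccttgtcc
Ifi213 (chr1:173599223-173599522, minus strand): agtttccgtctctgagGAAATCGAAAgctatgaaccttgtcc
Ifi214 (chr1:173535908-173536207, minus strand): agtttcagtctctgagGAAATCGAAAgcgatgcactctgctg
Ifi209 (chr1:173630609-173630908, plus strand): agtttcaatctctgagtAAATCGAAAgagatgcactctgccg
Ifi203 (chr1:173942443-173942742, minus strand): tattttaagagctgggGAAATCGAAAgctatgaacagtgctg
Mndal (chr1:173880138-173880437, minus strand): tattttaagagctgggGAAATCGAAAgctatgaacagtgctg
Ifi211 (chr1:173912997-173913296, minus strand): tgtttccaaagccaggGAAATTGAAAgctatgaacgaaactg
Ifi205 (chr1:174031706-174032005, minus strand): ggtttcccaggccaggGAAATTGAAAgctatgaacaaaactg

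The word GAAATCGAAA stood in the promoters of Ifi203, Ifi206, Ifi208, Ifi213, Ifi214 and Mndal, and in that of their neighbour Ifi207. Over all 32851 windows, those of these genes included, it was found in 16 (0.0487%). Ifi205 and Ifi211 carried GAAATTGAAA, which 0.116% of windows held. The Ifi209 window held the last 9 of the 10 letters, AAATCGAAA, and so did not match. The distance to the annotated start ran between 35 bases upstream in Ifi203 and 134 bases upstream in Ifi205. Ifi205 also had a match on the opposite strand, 24 bases after the start, and a second window of Mndal had one too. With 2 or 3 free bases allowed, 8 of the 9 genes again held a match, against 5.99% of all windows. The gamma-activated site, searched as TTCNNNGAA on both strands, was in the windows of 0 of the 9 genes and in 8.30% of all windows, so these letters are not in these windows. These matches describe sequence, not measured binding.

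The windows also fall into groups of near copies. Over aligned stretches of 267 to 285 bases, Ifi206, Ifi208 and Ifi213 were 98.5% to 98.9% identical. Ifi209 and Ifi214 were 95.7% identical over 300 bases, Ifi203 and Mndal 94.3% over 299 bases, and Ifi205 and Ifi211 93.5% over 201 bases. The window of Ifi208, the gene with the largest difference between the genotypes, is given whole, with the word in capitals.
Ifi208 (chr1:173673415-173673714, plus strand): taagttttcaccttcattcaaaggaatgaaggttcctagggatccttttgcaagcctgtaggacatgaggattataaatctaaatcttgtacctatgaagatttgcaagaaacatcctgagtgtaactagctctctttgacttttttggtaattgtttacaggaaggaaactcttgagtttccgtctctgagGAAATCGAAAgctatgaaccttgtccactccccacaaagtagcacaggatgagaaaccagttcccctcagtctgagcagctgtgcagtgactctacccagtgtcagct

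All 10 genes were lower in KO than in WT, by between 2.54-fold (Ifi203) and 9.55-fold (Ifi208). The median log2 fold change of the 10 genes, KO minus WT, was -1.98, and that of all genes tested was 0.01. With edgeR at an adjusted p under 0.05, 10 of 10 were called lower, where 15.0% of all genes tested were called lower (2164) and 14.1% called higher (2036). Scaled by library totals alone, 1361 genes were called lower and 4231 higher, and the median of all genes moved to 0.12. At least 2-fold lower were 10 of 10, against 1.93% of all genes tested, and 10 of 10 had every KO value below every WT value, against 12.4% of all genes tested. The genes were chosen on this contrast, so nothing is read from these counts. Counts per gene and library ran from 30 to 12171.

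Ifi204 (ENSMUSG00000073489, chromosome 1, 173574859 to 173594509 in the coordinates of the count table) is the DNA sensor gene named above. Its normalised level was 175, 164, 136, 178 and 106 CPM in KO 1 to KO 5, against 505, 488, 455, 485 and 557 CPM in WT 1 to WT 5. The highest KO library lay far below the lowest WT library. The means were 152 ± 30.5 CPM in KO and 498 ± 37.7 CPM in WT (SD, n = 5 each), a 3.28-fold lower KO level and a log2 fold change of -1.71 ± 0.13 (SE).

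Ifi205 (ENSMUSG00000054203, 173839564 to 173859376) encodes p205, which in mouse macrophages has been reported to control expression of the ASC gene, Pycard. It had 159, 155, 116, 151 and 116 CPM in KO, against 521, 485, 494, 515 and 606 CPM in WT. The KO libraries fell into a higher set of 3 and a lower pair, KO 3 and KO 5, and the WT libraries were close together apart from a high WT 5. The means were 140 ± 21.9 CPM in KO and 524 ± 47.9 CPM in WT (SD, n = 5 each), 3.75-fold lower in KO, with a log2 fold change of -1.91 ± 0.11 (SE).

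Ifi211 (ENSMUSG00000026536, 173723911 to 173740612) is a near copy of Ifi205 over part of its promoter and transcript. Its KO libraries had 163, 156, 123, 159 and 108 CPM, and its WT libraries 436, 424, 429, 399 and 438 CPM. Here WT varied little, and the groups were far apart. Means of 142 ± 24.8 CPM in KO and 425 ± 15.6 CPM in WT (SD, n = 5 each) differed 3.00-fold, with a log2 fold change of -1.59 ± 0.11 (SE).

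Ifi203 (ENSMUSG00000039997, 173747973 to 173770238) encodes p203, another interferon-inducible nuclear protein of the family, and had the smallest difference of the 10. Its level was 104, 96.6, 83.3, 104 and 65.3 CPM in KO, against 230, 221, 207, 236 and 259 CPM in WT. Even here the groups did not overlap. The means were 90.7 ± 16.5 CPM in KO and 230 ± 19.5 CPM in WT (SD, n = 5 each), a log2 fold change of -1.35 ± 0.12 (SE).

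Mndal (ENSMUSG00000090272, 173676692 to 173708447), named for its likeness to human MNDA, a nuclear protein of myeloid cells, shares the promoter stretch of Ifi203 letter for letter. KO libraries had 57.4, 43.8, 35.8, 43.4 and 31.6 CPM, and WT libraries 113, 115, 121, 123 and 151 CPM. KO 1 was the highest KO library by some distance, as WT 5 was among WT. The means were 42.4 ± 9.84 CPM in KO and 125 ± 15.3 CPM in WT (SD, n = 5 each), 2.94-fold lower in KO, with a log2 fold change of -1.55 ± 0.14 (SE).

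Ifi209 (ENSMUSG00000043263, 173458483 to 173475494) and Ifi214 (ENSMUSG00000070501, 173347283 to 173363523) are a pair of near copies at very different levels. Ifi209 had 102, 106, 75.4, 110 and 68.3 CPM in KO, against 368, 365, 362, 380 and 428 CPM in WT, a log2 fold change of -2.05 ± 0.13 (SE). Ifi214 had 3.27, 3.45, 1.88, 3.24 and 1.51 CPM in KO, against 12.5, 12.4, 12.6, 13.3 and 14.7 CPM in WT, a log2 fold change of -2.29 ± 0.19 (SE). In both genes the groups were apart, and KO 3 and KO 5 were the low KO libraries. The ratio of means was 4.13-fold for Ifi209 (92.2 ± 19.0 CPM in KO, 381 ± 27.4 CPM in WT) and 4.90-fold for Ifi214 (2.67 ± 0.903 CPM in KO, 13.1 ± 0.946 CPM in WT; SD, n = 5 each).

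The trio of closest copies, Ifi206, Ifi208 and Ifi213, held the 3 largest differences of the 10. Ifi208 (ENSMUSG00000066677, 173501241 to 173525961) had 4.93, 4.44, 3.13, 5.55 and 2.67 CPM in KO, against 40.1, 40.7, 37.3, 35.9 and 43.9 CPM in WT. Its log2 fold change was -3.25 ± 0.16 (SE), from means of 4.15 ± 1.21 CPM in KO and 39.6 ± 3.12 CPM in WT (SD, n = 5 each). No other gene of the cluster differed as much.

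Ifi206 (ENSMUSG00000037849, 173296051 to 173318607) had 25.8, 28.7, 19.0, 31.9 and 14.5 CPM in KO, against 136, 143, 146, 141 and 148 CPM in WT. The WT libraries agreed within a narrow band, while the KO libraries differed among themselves by more than the WT ones did in relative terms. The means were 24.0 ± 7.12 CPM in KO and 143 ± 4.63 CPM in WT (SD, n = 5 each), 5.94-fold lower in KO, with a log2 fold change of -2.57 ± 0.17 (SE).

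Ifi213 (ENSMUSG00000073491, 173393849 to 173426840) had 21.6, 23.9, 16.2, 25.4 and 11.6 CPM in KO, against 92.7, 94.2, 93.8, 99.0 and 116 CPM in WT. The order of its KO libraries was the same as that of Ifi206. Means of 19.7 ± 5.74 CPM in KO and 99.2 ± 9.83 CPM in WT (SD, n = 5 each) differed 5.02-fold, a log2 fold change of -2.33 ± 0.18 (SE).

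**Figure D1:**
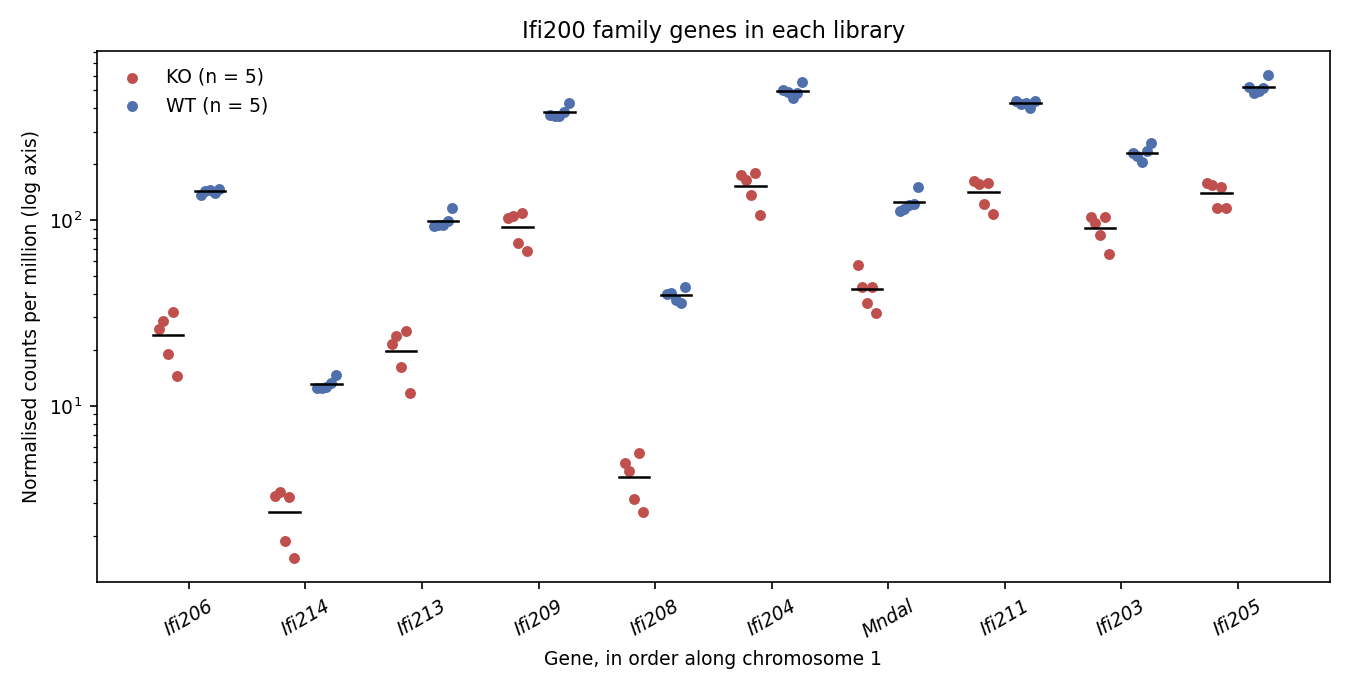
Normalised level of each Ifi200 family gene (CPM, log axis) in the 5 KO libraries (red, left) and the 5 WT libraries (blue, right), with a bar at each mean and genes in chromosome order. In each of the 10 genes the KO points lie below the WT points, from 4.15 against 39.6 CPM in Ifi208 to 90.7 against 230 CPM in Ifi203.

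Other things differed between the same libraries. Summed markers of neutrophils were 22.8 to 26.8 CPM in KO and 14.7 to 18.9 CPM in WT (6 of 6 with a count, 3 of them at or under the floor). Mesothelial and fibroblast markers summed to 544 to 669 CPM in KO and 485 to 536 CPM in WT (6 of 6). Mast cell markers summed to 4.27 to 5.44 CPM in KO and 7.48 to 13.5 CPM in WT (6 of 6). Their part in the family's lower KO level was not tested. T and NK cell markers summed to 0.323 to 0.647 CPM in KO and 0.149 to 0.428 CPM in WT. Of these 8 genes, 6 were at or under the floor, with Cd3e and Ncr1 at 0. B cell markers summed to 0.358 to 0.737 CPM in KO and 0.205 to 1.23 CPM in WT (3 of 5 at or under the floor). Dendritic markers summed to 1.21 to 1.84 CPM in KO and 0.856 to 2.12 CPM in WT (3 of 5 at or under the floor, with Xcr1 and Siglech at 0).

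Near copies can exchange reads when reads are counted, and how multimapping reads were treated is not given in the sources used here. In GENCODE M21 transcripts, 72.8% of the 50-base words of Ifi211 also stood in another gene, 44.7% in Ifi205 and 30.1% in Ifi204. The share was 33.7% for Ifi209, nearly all with Ifi214 (33.4%), and 25.6% for Ifi206. It was 20.9% for Ifi208, 20.0% for Ifi204, 19.6% for Mndal, 18.6% for Ifi205, 15.6% for Ifi213, 14.6% for Ifi214 and 12.4% for Ifi203. With 100-base words the shares ran from 2.84% in Ifi203 to 56.9% in Ifi211. The levels of single genes, above all Ifi211, are uncertain to that extent. No overlapping locus held a count: 3 annotated genes overlap a family gene, and all had 0 counts in the 10 libraries.

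**Figure D2:**
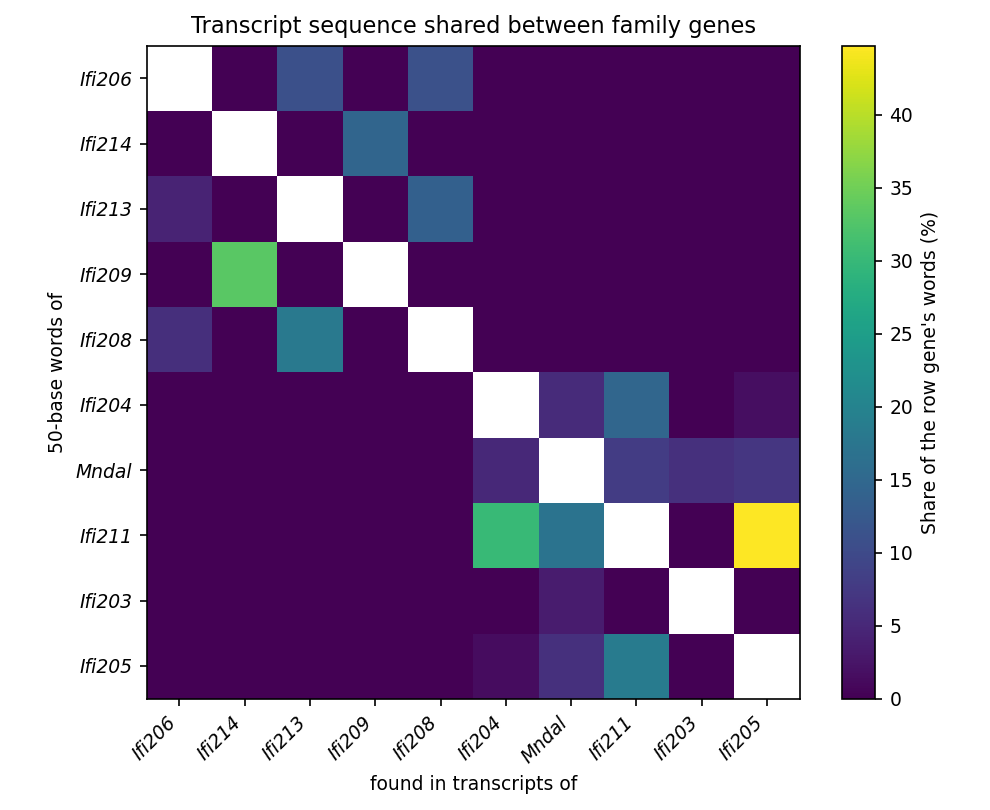
Share of the 50-base words of each gene's transcripts (rows, percent by colour) that also stand in transcripts of another family gene (columns), with both axes in chromosome order. Sharing stays within 2 blocks, Ifi206 to Ifi208 and Ifi204 to Ifi205, and is highest for words of Ifi211 found in Ifi205, at 44.7%.

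Sums over near copies do not depend on how reads were divided within a group. Words are also shared between groups, with 17.1% of the 50-base words of Ifi211 found in Mndal. Reads could therefore still move between the sum that holds Ifi211 and the sum that holds Mndal. Ifi206, Ifi208 and Ifi213 together had 47.9 ± 14.0 CPM in KO and 281 ± 15.2 CPM in WT, 5.88-fold lower in KO. Ifi209 and Ifi214 together had 94.9 ± 19.8 CPM in KO and 394 ± 28.3 CPM in WT, 4.15-fold lower. Ifi204, Ifi205 and Ifi211 together had 433 ± 76.1 CPM in KO and 1447 ± 91.6 CPM in WT, 3.34-fold lower, and Ifi203 with Mndal 133 ± 25.3 CPM in KO and 355 ± 32.7 CPM in WT, 2.67-fold lower (SD, n = 5 each). The order of the groups by difference was thus that of their single genes.

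The whole family summed to 815, 782, 609, 813 and 525 CPM in KO 1 to KO 5, against 2453, 2388, 2357, 2427 and 2761 CPM in WT 1 to WT 5. The groups were far apart, with KO 5 lowest of KO and WT 5 highest of WT. Its means were 709 ± 133 CPM in KO and 2477 ± 163 CPM in WT, or 0.0737% ± 0.0140 of all counts in KO and 0.238% ± 0.0140 in WT (SD, n = 5 each). The log2 fold change of the sum was -1.81 ± 0.12 (SE), a 3.49-fold lower KO level. Without KO 1 and KO 3, the libraries that stood apart, it was -1.81, a fit chosen after seeing the data.

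The genes did not keep their proportions. Of the family's counts, Ifi208 held 0.576% ± 0.072 in KO and 1.60% ± 0.082 in WT, Ifi206 held 3.33% ± 0.465 in KO and 5.77% ± 0.335 in WT, and Ifi213 held 2.74% ± 0.367 in KO and 4.00% ± 0.161 in WT. Ifi209 held 13.0% ± 0.530 in KO and 15.4% ± 0.250 in WT, and Ifi214 held 0.368% ± 0.066 in KO and 0.529% ± 0.014 in WT. These 5 shares lay wholly below WT in every KO library. Ifi203 held a larger share, 12.8% ± 0.529 in KO against 9.30% ± 0.350 in WT, and Ifi211 held 20.0% ± 0.327 in KO against 17.2% ± 0.999 in WT, both wholly above WT. The shares of Ifi204, Ifi205 and Mndal overlapped between the genotypes. Together the 3 leading genes, Ifi204, Ifi205 and Ifi211, made up 61.2% ± 0.971 of the family in KO and 58.4% ± 0.744 in WT (SD, n = 5 each). A share does not depend on how libraries are scaled to each other.

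**Figure D3:**
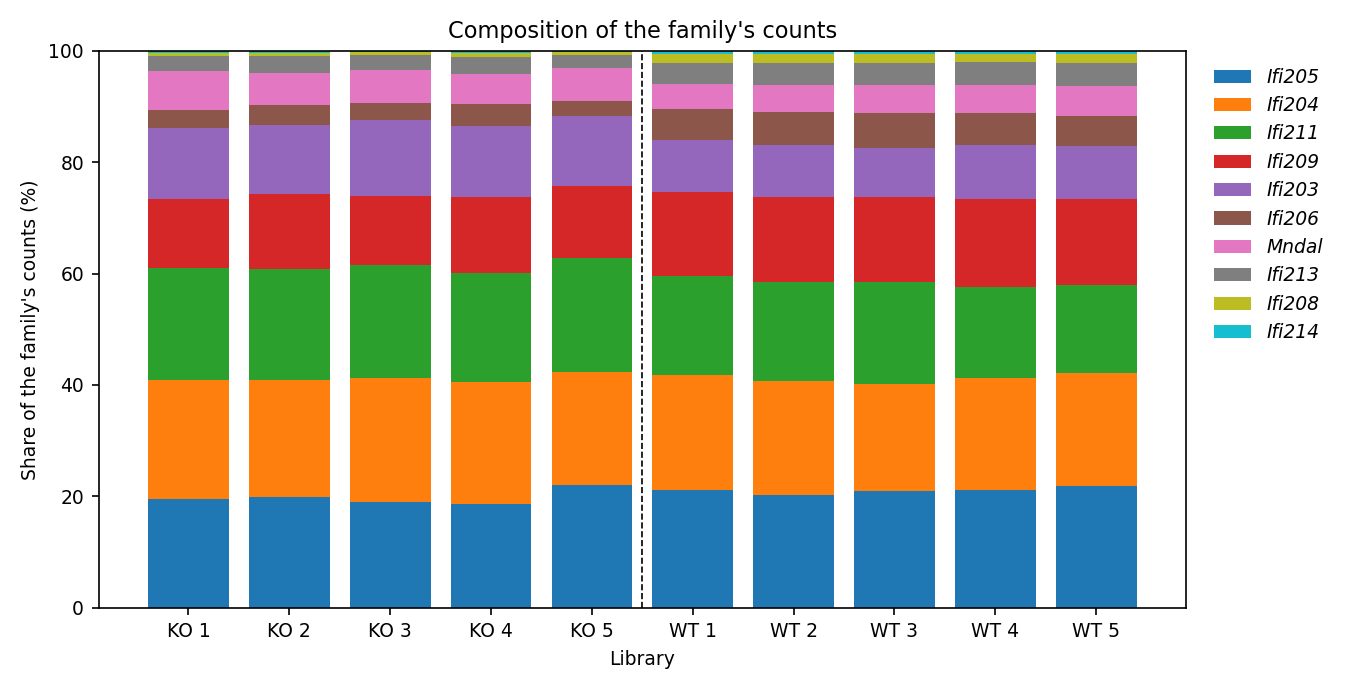
Share of the family's summed counts held by each of the 10 genes (percent, stacked) in the 5 KO libraries (left of the dashed line) and the 5 WT libraries (right). Ifi203 takes 12.8% on average in KO and 9.30% in WT, while Ifi208, just below Ifi214 at the top, takes 0.576% in KO and 1.60% in WT.

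Levels of different genes can be compared only per length. As CPM per kilobase of the gene length implied by the deposited FPKM, Ifi211 was the highest in both groups, at 79.4 ± 13.9 in KO and 238 ± 8.71 in WT (SD, n = 5 each). Ifi204 followed with 38.4 in KO and 126 in WT, then Ifi205 with 28.6 in KO and 107 in WT, and Ifi209 with 24.5 in KO and 101 in WT, all as CPM per kilobase. These last 3 neighbours overlapped in range in both groups, though the order held in all 5 libraries of each. In the middle stood Ifi203 with 10.5 in KO and 26.6 in WT, Mndal with 8.47 in KO and 24.9 in WT, and Ifi206 with 6.90 in KO and 41.0 in WT, per kilobase. Ifi206 was the one gene to change rank by more than 1 place, ranking 7 in KO and 5 in WT. Its range was clear of those of Ifi203 and Mndal in WT and overlapped both in KO. The lowest 3 were Ifi213 with 2.00 in KO and 10.1 in WT, Ifi208 with 0.660 in KO and 6.30 in WT, and Ifi214 with 0.298 in KO and 1.46 in WT, per kilobase, apart from each other in both groups. The highest level was 266 times the lowest in KO and 163 times in WT. The lengths ran from 1785 bases in Ifi211 to 9868 bases in Ifi213 and cover every annotated exon, so genes with many transcripts have their level per kilobase lowered.

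Along the chromosome the difference was larger in the first 5 of the 10 genes than in the last 5. The 10 genes span 563 kb, chr1:173296051-173859376 in the table's coordinates, which lie 172376 to 180523 bases below the GRCm38 starts. The first 5 in order (Ifi206, Ifi214, Ifi213, Ifi209, Ifi208) were 4.13- to 9.55-fold lower in KO, and the last 5 (Ifi204, Mndal, Ifi211, Ifi203, Ifi205) 2.54- to 3.75-fold lower. These ranges did not overlap. The first 5 are also the near-copy groups of Ifi206, Ifi208 and Ifi213 and of Ifi209 and Ifi214, so position and likeness of sequence cannot be told apart. Of the genes lying among the last 5 but not counted with them, the pseudogene Ifi203-ps was 5.61-fold lower in KO at low counts, and Ifi202b was not called. The log2 WT level per kilobase and the log2 fold change had a Pearson r of 0.52 and a Spearman rho of 0.44 over the 10 genes. This is a description only, since the genes share libraries and reads.

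**Figure D4:**
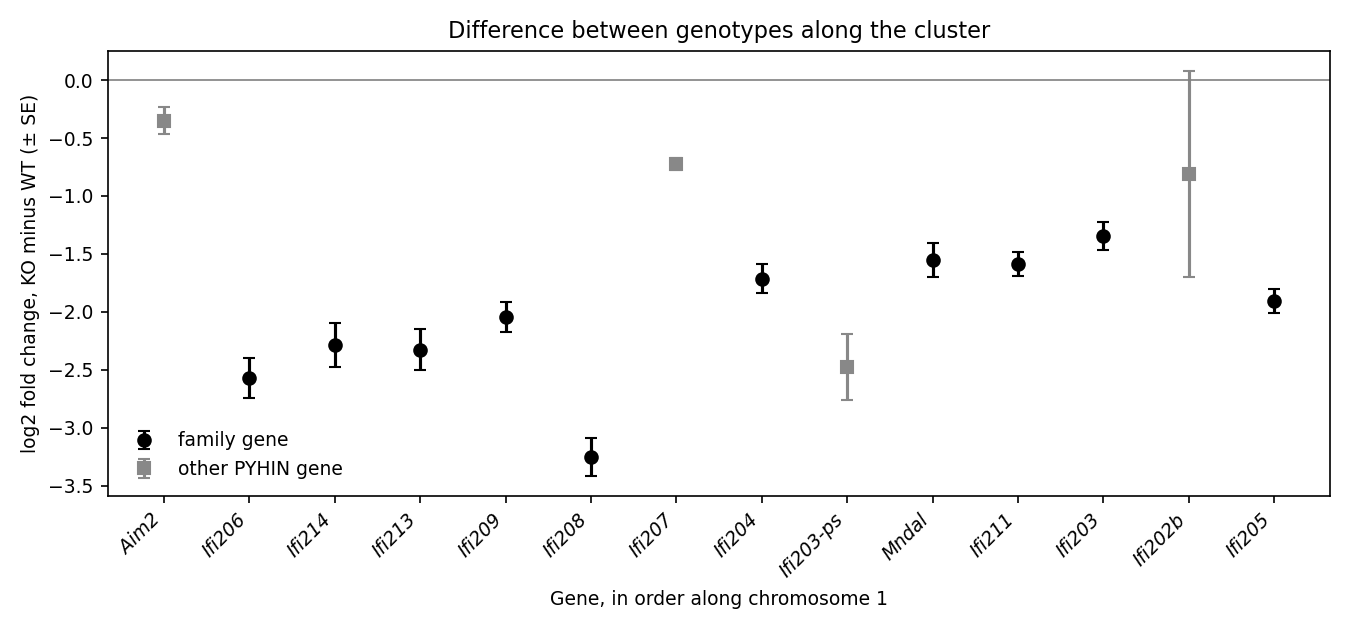
Log2 fold change, KO minus WT, with its SE (vertical bars) for the 10 family genes (black circles) and 4 other PYHIN genes (grey squares), in order along chromosome 1 but not to scale. Family genes run from -3.25 in Ifi208 to -1.35 in Ifi203, Ifi207 between them lies at -0.73, and Aim2 next to the cluster at -0.35.

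Of 9 other PYHIN gene names looked for, 4 were in the table, all in or beside the cluster, and 3 were called lower in KO by edgeR. The 4 are not among the 10 genes, and their tests are given. These names too were listed with earlier results of these data known. Names were matched by symbol alone, so a name not found need not be a further gene. Ifi207 (173550993 to 173569313), between Ifi208 and Ifi204, had 112, 120, 98.1, 113 and 105 CPM in KO, against 181, 182, 179, 174 and 189 CPM in WT. It was lower in 5 of 5 KO libraries without overlap, but by less than any family gene, with a log2 fold change of -0.73 ± 0.05 (SE, adjusted p = 1.41e-06). Its promoter carries the same word GAAATCGAAA.

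Ifi203-ps, an unprocessed pseudogene of Ifi203, had 0.599, 0.431, 0.716, 0.245 and 0.756 CPM in KO, against 3.11, 1.77, 3.33, 3.28 and 3.93 CPM in WT. Its log2 fold change was -2.48 ± 0.29 (SE, adjusted p = 5.00e-05), at counts of 5 to 16 in KO and 33 to 79 in WT. It shares 24.3% of its 50-base words with Ifi203, so its counts cannot be fully separated from those of the gene.

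Aim2, the inflammasome sensor at the edge of the cluster, had 24.8, 25.5, 22.9, 30.0 and 22.8 CPM in KO, against 29.7, 39.0, 25.5, 36.4 and 30.0 CPM in WT. The groups overlapped. The log2 fold change was -0.35 ± 0.12 (SE), with an adjusted p of 0.0421. This call was lost with library totals (adjusted p = 0.136), with no filter on low counts (adjusted p = 0.0879) and without KO 1 and KO 3 (adjusted p = 0.155). It was also lost without any one of 4 KO libraries (1, 2, 3 or 5) or 4 WT libraries (1, 2, 4 or 5), at adjusted p-values of 0.0529 to 0.107. Its window held no match to GAAANNGAAA.

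Ifi202b, whose product has HIN domains but no pyrin domain and in mouse counteracts AIM2, divided the KO libraries. It had 56, 2, 82, 0 and 0 counts in KO 1 to KO 5, or 2.58, 0.0863, 3.67, 0 and 0 CPM. The WT libraries had 48, 69, 29, 47 and 27 counts, or 2.37, 3.69, 1.46, 2.41 and 1.34 CPM. KO 1 and KO 3 were at the level of WT, and the other 3 KO libraries were at or under the floor of 3 counts. KO 1 and KO 3 are the libraries that stood apart on the second principal component. No difference was called over all 10 libraries (log2 fold change -0.81 ± 0.89, SE, adjusted p = 0.549), while without KO 1 and KO 3 edgeR gave an adjusted p of 0.000276, in a fit chosen after seeing the data. None of the 10 family genes had this pattern: in each, KO 1 and KO 3 were below every WT library.

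Within KO the family genes moved together, and within WT less closely. Over the 5 KO libraries the 45 pairs of genes had a Pearson r of 0.74 to 1.00 with a median of 0.96, and over the 5 WT libraries 0.07 (Ifi211 with Ifi203) to 0.99 with a median of 0.74. After removal of the genotype means, the r over all 10 libraries, to which the wider KO spread adds more than the WT spread, was 0.69 to 0.99 with a median of 0.93. Ifi204 with Ifi203 had the highest r over the 10 libraries, and Ifi206 with Mndal the lowest. KO 5 was the lowest KO library in 9 of the 10 genes and KO 3 the second lowest in 9, and WT 5 was the highest WT library in all 10. The libraries share preparation and depth, and some genes share reads, so these values are a description.

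Spread between libraries differed by genotype. The median coefficient of variation of the 10 genes was 21.9% in KO and 7.73% in WT, whereas over all genes tested it was 9.35% in KO and 8.75% in WT. Ifi214, Ifi206, Ifi208 and Ifi213 varied most in KO, at 33.8%, 29.7%, 29.2% and 29.0%, and Ifi205 least, at 15.7%. Ifi206 varied least in WT, at 3.25%, and Mndal most, at 12.3%. Across the 10 genes, the KO coefficient of variation and the log2 fold change had a Pearson r of -0.71. The same KO values enter both measures, and the genes were chosen on this contrast and share libraries and reads. Nothing is read from this r.

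**Figure D5:**
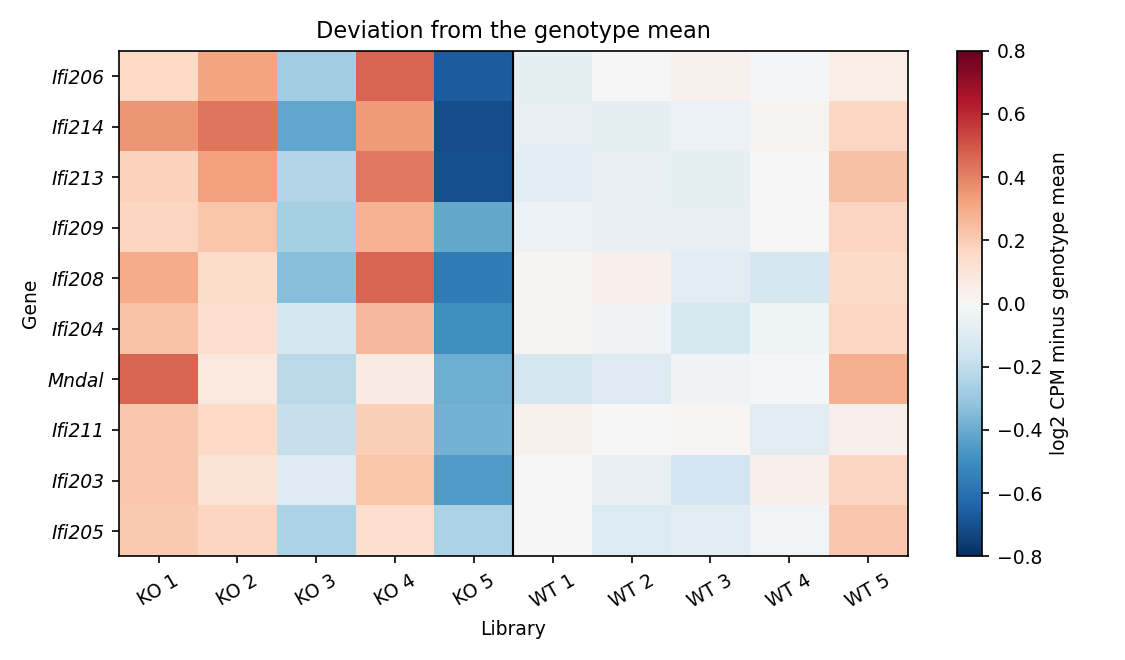
Deviation of each family gene from its genotype mean (log2 CPM, by colour) in the 5 KO libraries (left of the line) and the 5 WT libraries (right), genes in chromosome order. KO 3 and KO 5 are low in nearly every row and WT 5 is high. Pairwise r runs from 0.74 to 1.00 within KO and from 0.07 to 0.99 within WT.

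Genes outside the family followed the same libraries. Of 11893 other genes at a mean log2 CPM of 1 or more, whose median r with the summed family was 0.01, the 6 most alike were Ifit1 (r = 0.99), Ifit1bl1 (0.98), Iigp1 (0.98), Cmpk2 (0.98), Irgm2 (0.97) and Ifit3 (0.97), over 10 libraries after removal of the genotype means. Ifit1 and Ifit3 encode interferon-induced proteins of the antiviral response, and Ifit1bl1 belongs to the same gene family. Iigp1 and Irgm2 encode interferon-inducible GTPases, and Cmpk2 a mitochondrial nucleotide kinase induced by interferon. The order of likeness does not show shared function or control.

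The pathway around the family was lower in part. Of 27 genes listed for cytosolic DNA sensing and the interferon pathway, 26 were tested, and 16 were called lower, 1 higher and 9 not called, with a median log2 fold change of -0.24 against 0.01 over all genes. Over all genes tested, 15.0% were called lower and 14.1% higher. Ifnb1, the interferon-beta gene, was too low to be tested. The 6 with the smallest p are given next.

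Samhd1, the gene of an enzyme acting on deoxynucleotides, fell to 206 ± 19.9 CPM in KO, against 458 ± 25.5 CPM in WT (log2 fold change -1.15, adjusted p = 3.62e-07). The receptor-associated kinase Tyk2 fell to 121 ± 6.62 CPM in KO, against 210 ± 9.41 CPM in WT (-0.80, adjusted p = 3.66e-07). Stat2, a part of the interferon-activated transcription complex, fell to 129 ± 15.6 CPM in KO, against 274 ± 9.47 CPM in WT (-1.09, adjusted p = 1.01e-06). In all of these every KO library was below every WT library.

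The interferon regulatory factor Irf1 fell to 40.0 ± 5.08 CPM in KO, against 84.3 ± 3.33 CPM in WT (log2 fold change -1.08, adjusted p = 1.48e-06). Irf7, another such factor, fell to 221 ± 35.5 CPM in KO, against 490 ± 11.4 CPM in WT (-1.15, adjusted p = 4.48e-06). Usp18, which removes ISG15 and dampens receptor signalling, fell to 177 ± 35.1 CPM in KO, against 490 ± 7.01 CPM in WT (-1.47, adjusted p = 3.50e-06). KO values were again below all WT values.

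Named after their values were seen are a pair of further genes. Dnase2a, the lysosomal DNase, was the 1 gene of this list to rise, to 119 ± 21.9 CPM in KO against 80.9 ± 3.26 CPM in WT (log2 fold change 0.56, adjusted p = 0.00135). Cgas, the cytosolic DNA sensor upstream of STING, was not called, at 19.6 ± 3.91 CPM in KO and 23.4 ± 6.52 CPM in WT (-0.26, adjusted p = 0.375; SD, n = 5 each for all genes of this list).

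Of 9 genes of the AIM2 inflammasome, all tested, 5 were called lower, 2 higher and 2 not called, where 15.0% of all genes tested were called lower and 14.1% higher. The pore-forming Gsdmd fell to 89.0 ± 5.12 CPM in KO, against 134 ± 5.77 CPM in WT (log2 fold change -0.60 ± 0.05, adjusted p = 3.44e-06), and the cytokine gene Il18 fell to 3.59 ± 0.834 CPM in KO, against 11.8 ± 1.35 CPM in WT (-1.72 ± 0.15). Casp1, the inflammasome protease, fell by 0.71 on the log2 scale and Casp8 fell by 0.43. Aim2 was the other gene called lower. Pycard, the ASC adaptor gene, rose in KO to 92.7 ± 4.37 CPM, against 58.8 ± 5.16 CPM in WT (SD, n = 5 each, log2 fold change 0.66 ± 0.06, adjusted p = 8.33e-06). Any relation of this rise to the lower Ifi205 was not tested. Il1b, named after its value was seen, was the other gene called higher (0.26, adjusted p = 0.0421). Its call was lost with no filter on low counts (adjusted p = 0.0572), without KO 1 and KO 3 (adjusted p = 0.0805) and without any one of 7 single libraries, KO 1, 4 or 5 or WT 1 to 4 (adjusted p = 0.0545 to 0.0946). Not called, and likewise named after their values were seen, were Gsdme (0.05, adjusted p = 0.838) and Ninj1 (-0.25, adjusted p = 0.0538), though Ninj1 passed with DESeq2 (adjusted p = 0.024), without KO 1 (0.0132), without KO 4 (0.041) and without KO 1 and KO 3 (0.0344).

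Of 51 other genes of the table inside the cluster or within 500 kb of its ends, 35 had no count and 7 were tested. Lower were 4 of the 7 and higher 0, against 15.0% and 14.1% of all genes tested. The 4 were Ifi207, Ifi203-ps, Aim2 and a predicted pseudogene that the naming rule passed over. The count was 3 with library totals, with no filter on low counts, with a stricter one (50 counts in 5 libraries) and without any one of KO 1, 2, 3 or 5 or WT 1, 2, 4 or 5. Not called, and also named with their values known, were Cadm3 (log2 fold change 0.29), a cell adhesion gene beside Aim2, Olfr433 (-0.21), an odorant receptor gene, and Ifi202b. Cadm3 and Olfr433 were both under 1 CPM in KO and in WT, so the tests on these genes rest on few reads.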

How the data were processed

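RNA-seq covered 10 libraries, 5 KO and 5 WT. Per the file headers, the authors deposited 1 table holding raw counts for each gene in each library. It also holds the deposited FPKM, used here only in the WT columns to recover the gene length behind each value (count over FPKM and library total); no FPKM value was tested. Per the submitters' processing notes, the tools were CASAVA 1.8 and TopHat2 2.0.6, and both mm10 and GRCm39 appear as builds with no role. Which counter and strand setting were used, and how multimapping reads were treated, is not given in the sources used here. The FPKM columns headed SI (5 value columns) were not used.

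Counts were fitted with edgeR 4.0.16 in R 4.3.3 (quasi-likelihood F test, KO minus WT, TMM factors, low genes removed by filterByExpr at its minimum count of 10, Benjamini-Hochberg adjustment over the 14436 genes kept, called at an adjusted p under 0.05). CPM are normalised by the TMM factors, and the family sum was refitted as 1 feature. The common biological coefficient of variation was 12.8%. The procedure was tested on simulated data with known changes. Pairs of libraries of 1 genotype differed well beyond sampling noise, with a chi-square per gene of 10.5 to 20.3, against 43.1 to 62.4 between genotypes, so none was a duplicate. Promoter windows were aligned with Biopython 1.88, and shared words were counted in GENCODE M21 transcripts. Proteins of the family were not analysed here.

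The family genes and the lists were chosen with earlier results of these data known. Named are all family genes, the other PYHIN genes with a count, Jaml, up to 6 genes of each pathway list with the smallest p, up to 5 neighbours that passed, and the 6 genes most like the family sum. Predicted genes were passed over, and exceptions are marked in the text as named after seeing values. Alternatives were DESeq2 1.42.0 size factors and its Wald test, library totals, no low-count filter, a stricter one of 50 counts in 5 libraries, a block for the replicate number, leaving out each library in turn, and, added after seeing the data, the fit without KO 1 and KO 3. For promoters, 2 or 3 free bases were allowed in place of 2.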

Additional observations from a re-analysis of the deposited data

Results flagged for a closer look

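In 80 groups of 5 libraries, the gap between an extreme library and its nearest neighbour was divided by the range of the group, and 8 exceeded the critical value of 0.71; chance alone passes about 1 group in 20. In 5 of the 8 the library was WT 5, and it was high. The summed family had 2761 CPM in WT 5 and 2453 CPM in the next WT library, a ratio of 0.763. Ifi209 had 428 and 380 CPM (0.728), Ifi213 had 116 and 99.0 CPM (0.730), Mndal had 151 and 123 CPM (0.737), and Ifit1bl1, outside the family, had 61.1 and 54.5 CPM (0.843). These genes move together, so the values are not separate observations. Without WT 5 the log2 fold changes of Ifi209, Ifi213, Mndal and the summed family kept their direction and call. The other 3 concerned Gsdmd in KO, where KO 5 had 80.0 CPM and the next library 90.2 CPM (0.780), Dnase2a in KO, where KO 5 had 158 CPM and the next 113 CPM (0.824), and Gsdme in WT, where WT 1 had 4.79 CPM and the next 3.38 CPM (0.751). Without KO 5, the Dnase2a log2 fold change was 0.44 and it was still called.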

How the results depend on the processing

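For the 10 family genes and their sum, 187 of 187 recomputed values kept their direction and their call, and no log2 fold change of a family gene moved by more than 0.14. Their ranges over the alternatives ran from -3.37 to -3.13 for Ifi208, -2.69 to -2.44 for Ifi206, -1.40 to -1.23 for Ifi203 and -1.86 to -1.69 for the summed family. With library totals, 1361 genes were called lower and 4231 higher, since this scaling moves the median of all genes to 0.12. The DNA sensing and interferon list then had 3 genes called higher in place of 1, and 1 to 2 with a library left out, where the value of 2 came without WT 3. Its genes called lower were 12 with library totals in place of 16, and 14 to 16 in the other alternatives. The AIM2 inflammasome list had 1 gene called higher in place of 2 with no filter and without KO 1 and KO 3, and 1 to 2 with a library left out; 7 single libraries (KO 1, KO 4, KO 5 and WT 1 to WT 4) each gave 1. In each of these settings the call lost was that of Il1b, and the cause was not tested. Same-numbered KO and WT libraries did not deviate together (r of -0.11 to 0.18), and the KO numbers come only from column names. With the replicate block, 2015 genes were called lower and 1765 higher, the summed family had a log2 fold change of -1.82, and 10 of 10 family genes were called lower. Ifi214, the lowest family gene, had as few as 30 counts (in KO 5) and the largest SE of the 10 log2 fold changes, at 0.19.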
